A study of Arabidopsis thaliana with 18 samples.

Results

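The comparison described here set shoots of salt-grown Arabidopsis colonized by SA187 against shoots of salt-grown plants without the bacterium, over all genes. It used 6 of the 18 libraries of the study, 3 from each group. SA187 is an Enterobacter strain that lives in and on roots and was isolated from a desert plant, and the study asked how it changes its host under salt. All plants were wild-type Arabidopsis thaliana of the ecotype Col-0. They germinated for 5 days, were moved to plates with 100 mM NaCl for 16 days and were 21 days old at harvest, so both groups were salt-stressed and no library without salt was compared. The SA187-colonized group grew with the bacterium and the noncolonized group (WT in the labels) with no treatment. The sources used here do not say whether a library came from 1 plant or several.

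Salt reaches the shoot as an osmotic and then an ionic stress. Calcium-binding proteins, kinases and transcription factors carry the early signal, and transcripts of dehydration-protective proteins follow. Bacteria on roots can change shoot transcripts through hormones such as ethylene, jasmonate and salicylate, and through the supply of nutrients. The values were FPKM of polyA RNA (fragments per kilobase of transcript, scaled to the mapped fragments of the library), 1 per gene and library, so the number of reads behind a value is unknown and the spread between libraries is the only measure of precision.

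The 6 libraries matched their label as shoots. All 13 leaf markers were above 1 FPKM in each of them, and their sum was 23500 to 29090 FPKM in noncolonized and 26280 to 37950 FPKM in SA187-colonized shoots. Of 17 root markers 13 or 14 were below 1 FPKM in every library, with sums of 16.1 to 22.9 FPKM, and 14 of 15 flower markers and at least 11 of 12 seed markers were below 1 FPKM. All 6 libraries carried the same pool and lane name. The noncolonized libraries spread more. The median SD of a gene on the log2(FPKM + 1) scale was 0.226 in them and 0.141 in the SA187-colonized libraries over 15724 tested genes. Noncolonized replicates 1, 2 and 3 correlated with SA187-colonized replicate 1 across genes at r = 0.962, 0.972 and 0.934 (genes are not independent replicates), so replicate 2 was nearest and replicate 3 farthest. Noncolonized replicate 2 correlated with SA187-colonized replicates 2 and 3 at 0.966 and 0.959, but with noncolonized replicates 1 and 3 at 0.9625 and 0.9205. It was thus more like SA187-colonized replicates 1 and 2 than like its own group. Noncolonized replicates 1 and 3 correlated at 0.961, and the SA187-colonized libraries with each other at 0.979 to 0.984. In bulk tissue, fewer cells of a type and less RNA per cell cannot be told apart.

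A gene was called higher or lower ("rose" or "fell") where limma's p after Benjamini-Hochberg adjustment over all tested genes was under 0.05 and the change exceeded 2-fold, taken from log2(FPKM + 1) values. By this rule 254 of 15724 genes passed (1.62%): 37 rose (0.235%) and 217 fell (1.38%). The spread was estimated over all 12 shoot libraries, compound-treated ones included; a fit of the 6 libraries alone called 1 gene higher and 9 lower, and a fit with library weights called 0 higher and 1 lower. All 10 genes called by the first of these were among the 254. At an unadjusted p under 0.05 with a fold over 2, the weighted fit had 36 genes higher and 278 lower. Log2 fold changes (SA187-colonized minus noncolonized) ran up to 3.56 for the genes that rose and down to -3.46 for those that fell. The median over all tested genes was -0.02, and 7344 of them had positive and 8380 negative fold changes. The 3 and 3 libraries did not overlap for all 37 genes that rose and for 215 of the 217 that fell, against 23.0% of all tested genes (9.02% with SA187 higher and 14.0% with SA187 lower). By the adjusted p alone 268 genes were higher (1.7%) and 689 lower (4.38%). At limma's unadjusted p under 0.05, at any fold, there were 4125 of 15724 genes. The exceptions to the lack of overlap were CYP707A3, which encodes an enzyme of abscisic acid breakdown, and HSPRO2.

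Most falls had one shape. Noncolonized replicate 3 was the highest of the 6 libraries for 160 of the 217 genes that fell, and replicate 2 was the lowest noncolonized library for 191 of them. The 3 SA187-colonized libraries lay closer together than the noncolonized ones. The median SD of the genes that fell was 0.24 on the log2 scale with SA187 and 0.591 without. Over all tested genes it was 0.141 with SA187 and 0.226 without. The number of genes called also moved with single libraries. It was 43 higher and 194 lower without SA187-colonized replicate 1, 3 and 45 without replicate 2, and 1 and 11 without replicate 3. It was 4 higher and 49 lower without noncolonized replicate 1, 110 and 615 without replicate 2, and 18 and 83 without replicate 3. In all 6 of these fits 10 of the 254 genes passed: AT2G40205 rose, and LHCB2.1, LHCB2.2, LHCB2.3, MBP1, AT3G56880, AT1G27030, AT3G44970, AT1G07985 and AT4G33550 fell.

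**Figure D1:**
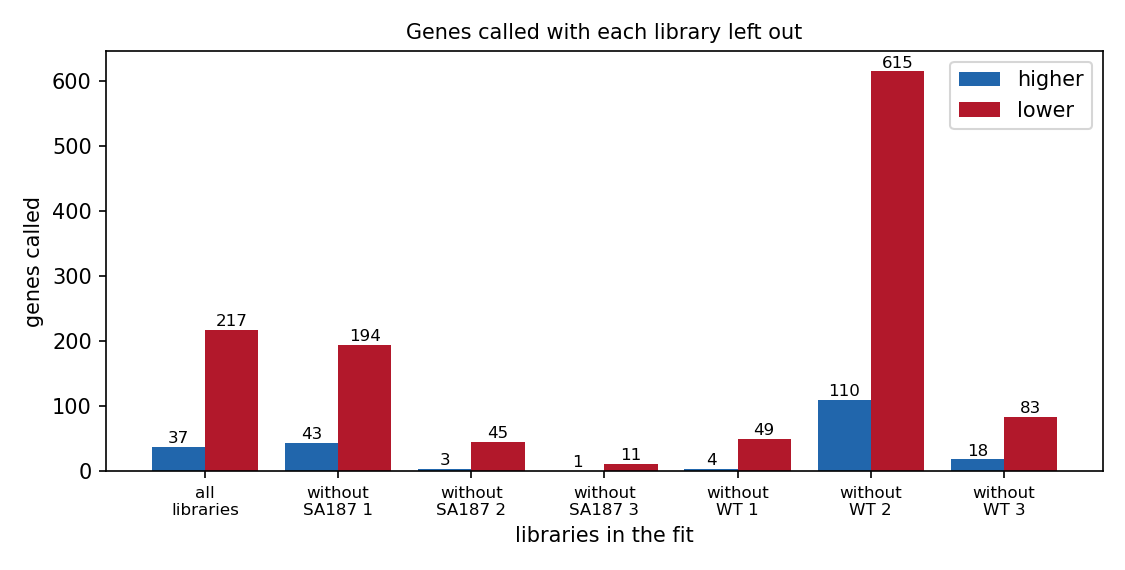
Number of genes called higher (blue) and lower (red) in SA187-colonized against noncolonized shoots, with all libraries and with each of the 6 libraries left out; the x axis names the library left out (WT, noncolonized) and the y axis counts genes. The count of lower genes runs from 11 without SA187-colonized replicate 3 to 615 without noncolonized replicate 2.

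A few calcium sensor genes were lower in SA187-colonized shoots, and most of the others had fold changes in that direction that did not pass. Of 43 tested calmodulins, calmodulin-like and related EF-hand genes 4 fell and 0 rose, 38 had a negative fold change, and the median was -0.57. TCH2 (AT5G37770), a calmodulin-like gene known for its induction by touch, was at 526, 283 and 688 FPKM in noncolonized and at 166, 125 and 128 FPKM in SA187-colonized replicates 1, 2 and 3 (log2 -1.75, SE 0.28, adjusted p = 0.0125). The highest SA187-colonized library was thus below the lowest noncolonized one. Its relative CML23 (AT1G66400) was at 10.9, 9.47 and 19.3 against 4.34, 1.83 and 2.54 FPKM (log2 -1.85, SE 0.28, adjusted p = 0.0101). The EF-hand genes MSS3 (-1.08) and AT3G25600 (-1.31) also fell. The number of lower calcium sensors was 4, 1 and 0 without SA187-colonized replicates 1, 2 and 3 and 1, 14 and 2 without noncolonized replicates 1, 2 and 3. With a smooth trend on transcript length and GC content removed from each library, 2 were lower and the median was -0.28.

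Single kinase and transcription factor genes fell as well. MAPKKK14 (AT2G30040), a kinase at the top of a MAP kinase cascade, was at 132, 43.8 and 108 FPKM in noncolonized and 29.2, 17.1 and 21.2 FPKM in SA187-colonized replicates 1, 2 and 3 (log2 -1.92, SE 0.37, adjusted p = 0.0209), and MAPKKK13 fell by 1.21 on the log2 scale. The remaining 15 of 17 tested MAPKKK genes did not pass, 12 of the 17 were positive and the list median was 0.24. Among 72 ERF and DREB transcription factor genes 4 fell and 0 rose (median -0.14). These were ESE3 (AT5G25190), AT1G22190, AT1G33760 and ERF11 (AT1G28370), an ethylene response factor that represses transcription. ESE3 was at 136, 52.5 and 191 FPKM in noncolonized against 34.9, 36.4 and 28.0 FPKM in SA187-colonized libraries (log2 -1.72, SE 0.36, adjusted p = 0.0246), and ERF11 was at 17.3, 5.53 and 18.7 against 4.10, 2.32 and 2.95 FPKM. In both, noncolonized replicate 2 was the library nearest to the colonized ones.

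All 8 ZAT and AZF zinc finger genes, repressors that respond within minutes to stress, had negative fold changes (median -0.94), and 2 fell. ZF1 (AT5G67450) was at 26.6, 6.18 and 21.3 against 3.18, 2.00 and 1.91 FPKM (log2 -2.31, SE 0.38, adjusted p = 0.0133), and ZF3 fell by 1.03 on the log2 scale. Of 36 WRKY genes, transcription factors of defense, 2 fell and 32 were negative (median -0.41): WRKY40 was at 13.7, 5.83 and 8.92 against 4.88, 3.51 and 3.39 FPKM and WRKY48 at 10.4, 4.60 and 9.52 against 1.98, 2.08 and 2.88 FPKM. Lower ERF genes numbered 4, 0 and 0 without SA187-colonized replicates 1, 2 and 3 and 0, 9 and 1 without noncolonized replicates 1, 2 and 3. For WRKY genes these numbers were 3, 0 and 0 and then 0, 6 and 0, for ZAT and AZF genes 2, 0 and 0 and then 1, 5 and 1, and for MAPKKK genes 1, 0 and 0 and then 0, 3 and 0. Of the lower genes outside these lists, the following belong to no counted group and were chosen after their values were seen: CAF1a (-1.65), a deadenylase that shortens mRNA tails, the salt-inducible zinc finger gene SZF1 (-1.19), the ubiquitin ligase gene CMPG1 (-1.53) and the mitochondrial carrier genes DIC2 (-1.34) and UCP5 (-1.45).

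**Figure D2:**
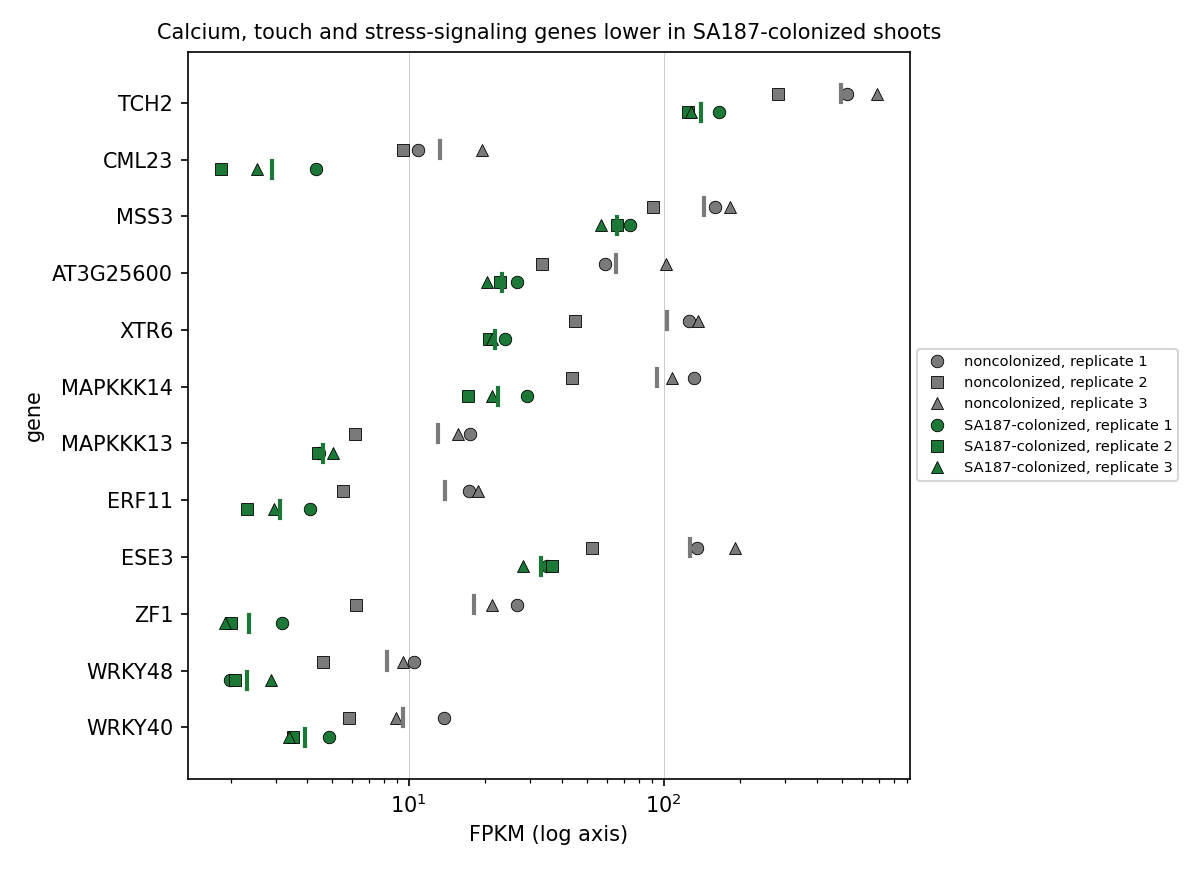
FPKM (log axis) of 12 calcium, touch and stress-signaling genes in each library; grey symbols are noncolonized and green symbols SA187-colonized shoots, symbol shape gives the replicate and the short bar the group mean. The groups do not overlap for any of the 12 genes, and noncolonized replicate 2 is the lowest grey symbol for all 12, for example at 44.9 FPKM for XTR6 against 126 and 137 FPKM in the other noncolonized libraries.

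The starts of these genes were searched for short motifs in windows from 250 bases before to 50 bases after the annotated gene start, on both strands, in the RefSeq assembly TAIR10.1, to which 252 of the 254 called genes could be matched. The letters CGCGT, the core of a site bound by calmodulin-binding transcription activators in Arabidopsis, were in 45 of 215 windows of genes that fell (20.9%), in 0 of 37 of genes that rose and in 9.77% of all 15589 windows. Windows of genes that fell held TTGAC, the core bound by WRKY factors, in 56.3% of cases, and CACGTG, the G-box, in 11.6%, against 50.4% and 8.97% of all windows. Windows of genes that rose held TTGAC in 40.5% and the G-box in 18.9% of cases. The letters GCCGCC, bound by ethylene response factors, were in 1.4% of windows of genes that fell, 2.7% of genes that rose and 2.6% of all. The letters ACCGAC, the core bound by DREB factors, were in 8.84%, 8.11% and 6.63% in the same order. The evening element of the clock, AAAATATCT, was in 5.12%, 10.8% and 3.2%. A match is a description of the letters and no evidence of binding.

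The 200 bases before the start of 4 genes that fell are given 5′ to 3′ on the gene's strand as examples of the motif. Of the genes that fell, 12 had it 3 or more times in their windows, AGP1 the most with 6, and these 4 were chosen from the 12 after their values were seen. Capitals mark CGCGT and its reverse complement ACGCG, and ACGCGT holds both, so it counts 2 times. TCH2 lies on the minus strand (chr5:14999620-14999819), CML23 on the minus strand (chr1:24771394-24771593), the expansin-like gene EXLA3 on the plus strand (chr3:16892502-16892701) and DIC2 on the plus strand (chr4:12686259-12686458), and 0 annotated exons overlap any of the 4 stretches.
TCH2: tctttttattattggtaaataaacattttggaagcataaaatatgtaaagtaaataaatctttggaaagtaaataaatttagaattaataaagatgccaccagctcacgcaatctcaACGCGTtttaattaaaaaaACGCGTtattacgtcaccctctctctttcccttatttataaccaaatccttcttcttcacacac
CML23: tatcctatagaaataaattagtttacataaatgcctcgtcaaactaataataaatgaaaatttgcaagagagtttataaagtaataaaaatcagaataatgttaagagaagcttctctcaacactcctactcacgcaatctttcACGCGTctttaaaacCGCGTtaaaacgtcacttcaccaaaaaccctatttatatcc
EXLA3: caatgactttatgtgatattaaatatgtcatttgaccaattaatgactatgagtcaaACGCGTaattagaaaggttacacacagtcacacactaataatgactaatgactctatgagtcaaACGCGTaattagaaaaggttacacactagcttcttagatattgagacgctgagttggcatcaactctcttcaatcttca
DIC2: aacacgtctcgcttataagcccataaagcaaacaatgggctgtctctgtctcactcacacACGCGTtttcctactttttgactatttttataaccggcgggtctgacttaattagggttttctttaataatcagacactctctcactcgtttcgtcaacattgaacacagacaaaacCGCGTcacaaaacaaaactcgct
In TCH2 and CML23 the capitals lie within 83 bases of the gene start, in EXLA3 and DIC2 the farthest begins 143 and 140 bases before it. EXLA3 holds ACGCGT in 2 copies, and a stretch of 26 bases occurs 2 times in its 200 bases. EXLA3 was at 3.83, 2.11 and 2.81 FPKM in noncolonized and 0.686, 0.724 and 0.609 FPKM in SA187-colonized libraries, and DIC2 at 114, 54.9 and 72.9 against 33.9, 36.0 and 21.6 FPKM. The lower genes MSS3, XTR6, MAPKKK14, ESE3 and ZF1 have no CGCGT in their windows.

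Genes of the light-harvesting antenna fell in part. The antenna binds chlorophyll and passes light energy to the photosystems, and the LHCB2 and LHCB1 proteins make up its mobile trimers at photosystem II. Of 21 tested antenna genes 7 fell and 0 rose, 16 were negative and the median was -0.58. LHCB2.1 (AT2G05100) was at 180, 93.0 and 207 FPKM in noncolonized and at 37.2, 41.7 and 29.3 FPKM in SA187-colonized replicates 1, 2 and 3 (log2 -2.06, SE 0.25, adjusted p = 0.00937). LHCB2.2 (AT2G05070), LHCB2.3 (AT3G27690) and LHCB3 (AT5G54270) fell too, without overlap, the last 2 by 1.74 and 1.66 on the log2 scale. Genes of photosystem I antenna proteins moved less: LHCA1 and LHCA2 had fold changes of -0.09 and 0.00, and LHCA4 was at -0.92 (adjusted p = 0.053). The 24 core subunits of both photosystems encoded in the nucleus had 0 calls by limma and a median of -0.03. Under 2-fold, 1 of them passed limma's adjusted p as higher and 2 as lower, PSAH2 (-0.68) and PSAN (-0.80). At limma's unadjusted p under 0.05 there were 11, against 4125 of all 15724 tested genes. Lower antenna genes numbered 7, 7 and 3 without SA187-colonized replicates 1, 2 and 3 and 6, 8 and 6 without noncolonized replicates 1, 2 and 3, and 7 with the length and GC trend removed.

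Within the LHCB1 subfamily some near-identical copies passed and another did not, and the difference between copies was not tested. CAB2 (AT1G29920) fell from 921, 297 and 1275 to 73.9, 139 and 104 FPKM (log2 -2.77, SE 0.43, adjusted p = 0.0109), and its neighbour CAB3 (AT1G29910), chosen after its values were seen, from 2824, 1501 and 3222 to 907, 1130 and 661 FPKM. CAB1 (AT1G29930), the most abundant copy, was at 11180, 8203 and 10720 against 7407, 7489 and 5183 FPKM and did not pass (log2 -0.59, SE 0.17, adjusted p = 0.0636). The coding sequences of CAB1, CAB2 and CAB3 have 804 bases each and are 95.6 to 96.4% identical, and those of LHCB2.1 and LHCB2.2 are 96.6% identical over 798 bases. Reads can be shared between such copies, so the value of each single copy is uncertain.

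**Figure D3:**
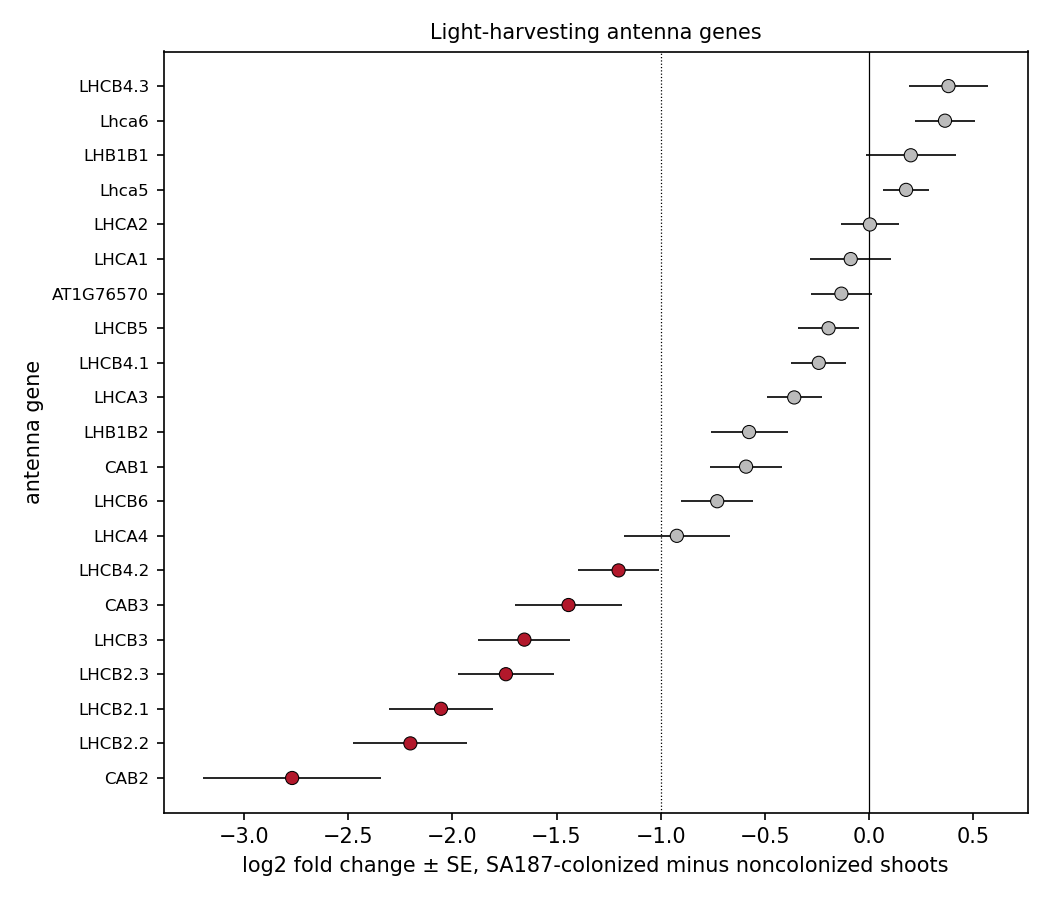
Log2 fold change with its SE (x axis) of the 21 tested antenna genes (y axis, sorted), SA187-colonized minus noncolonized shoots; red points were called lower and the dotted line marks a 2-fold decrease. The 7 red genes are all of photosystem II and run from -2.77 for CAB2 upward, ending with LHCB4.2.

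The largest fall by the naming rule was that of AT1G47395, followed by AT4G02170, CAB2, AT2G18193 and AT1G47400. AT1G47395 was at 41.8, 27.2 and 77.7 FPKM in noncolonized and at 4.33, 4.42 and 1.44 FPKM in SA187-colonized replicates 1, 2 and 3 (log2 -3.46, SE 0.50, adjusted p = 0.0101). AT1G47400 was at 24.0, 14.6 and 37.3 against 3.71, 3.56 and 2.17 FPKM (log2 -2.59, SE 0.53, adjusted p = 0.0239). In both genes every SA187-colonized library was below the lowest noncolonized one. They are neighbours on chromosome 1 with 1876 bases between them, and the reference annotates both as uncharacterized proteins. BHLH100 (AT2G41240), a transcription factor gene induced by iron deficiency, was at 1.62, 3.04 and 4.70 against 0.476, 0.900 and 0.118 FPKM and was the one gene of 6 tested in the iron regulation list that fell. All 6 genes of that list were negative. The list did not hold AT1G47395 or AT1G47400, so its count leaves out the falls of this pair. AT1G47395 passed in 5, BHLH100 in 4 and AT1G47400 in 2 of the 6 fits that left out a library.

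The open reading frames of this pair are shown 5′ to 3′ because their length and likeness bear on whether reads can be assigned to one of them. AT1G47395 occupies chr1:17383117-17383269 and AT1G47400 chr1:17385818-17385970, both on the plus strand of TAIR10.1, and capitals mark the bases at which they differ.
AT1G47395: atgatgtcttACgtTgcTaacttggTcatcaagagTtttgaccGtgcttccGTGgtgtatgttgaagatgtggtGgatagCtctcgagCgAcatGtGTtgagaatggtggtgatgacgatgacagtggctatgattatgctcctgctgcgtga
AT1G47400: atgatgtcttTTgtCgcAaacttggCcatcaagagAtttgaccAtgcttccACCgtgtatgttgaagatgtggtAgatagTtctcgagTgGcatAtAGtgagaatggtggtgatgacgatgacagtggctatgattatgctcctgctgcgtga
Each frame has 153 bases. They differ at 17 bases (88.9% identical), and their last 55 bases are the same, so reads that fall there cannot be told apart by sequence.

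Most called genes had no called neighbour, where a neighbour is the previous or the next gene of the deposited table by start position. Of 252 called genes on the 5 nuclear chromosomes 20 (7.94%) lay next to another called gene, and of 15589 tested genes there 310 (1.99%) lay next to a called gene. The 10 pairs held 8 in which both fell, 1 in which both rose (EDA6 and AT3G23450) and 1 with a rise beside a fall (AT5G40450 and AT5G40460). CAB3 and CAB2, LHCB2.2 and LHCB2.1, and the pair of open reading frames above are near copies by sequence. COR15B and COR15A, UGT73B3 and UGT73B2, and SAUR63 and AT1G29430 share a family by name or annotation. The part of shared reads between near copies in this was not tested. AT2G35290 and LEA18, with 600 bases between them, belong to different families.

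Transcripts of proteins that protect cells during dehydration and cold were lower for 8 of 28 tested dehydrin, COR and LEA genes, and 0 rose (median -0.35). LEA7 (AT1G52690), of the late embryogenesis abundant family, was at 5.62, 1.83 and 9.71 FPKM in noncolonized and 1.09, 0.737 and 0.539 FPKM in SA187-colonized libraries (log2 -1.72, SE 0.41, adjusted p = 0.0333). AT3G02480, of the same family, was at 3.79, 2.67 and 6.50 against 0.472, 0.272 and 0.231 FPKM, and LEA18 at 2.51, 1.44 and 1.59 against 0.237, 0 and 0.123 FPKM. These 3 were low in all 6 libraries compared with COR15B, which was at 221, 211 and 325 against 119, 134 and 117 FPKM. Lower genes of the list numbered 6, 3 and 0 without SA187-colonized replicates 1, 2 and 3 and 3, 12 and 3 without noncolonized replicates 1, 2 and 3. The lists of osmolyte synthesis (12 tested) and of sodium and vacuolar ion transport (10 tested) had 0 calls by limma. At limma's unadjusted p under 0.05 they had 1 and 3 genes, against 4125 of all 15724 tested genes. P5CS1, of proline synthesis, was at 19.2, 17.6 and 13.9 against 11.5, 11.2 and 14.6 FPKM and AVP1, a vacuolar proton pump, at 68.6, 98.6 and 56.3 against 91.7, 117 and 118 FPKM.

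Lipid transfer proteins, small secreted proteins that carry cuticle lipids or take part in defense, had 7 lower genes among 81 tested in a list of lipid transfer and cuticle genes, and 0 higher (median -0.04). LTP2 (AT2G38530) was at 66.0, 65.7 and 126 FPKM in noncolonized and 23.3, 30.4 and 22.0 FPKM in SA187-colonized libraries (log2 -1.67, SE 0.23, adjusted p = 0.0101), and LTP3 was at 85.6, 20.5 and 162 against 19.1, 10.9 and 8.99 FPKM. In LTP3 the lowest noncolonized and the highest colonized library were nearly equal. AT3G53980, AT2G37870, AT4G22513 and AT4G33550, annotated as members of the same protein superfamily, fell by 1.96, 2.09, 1.79 and 1.61 on the log2 scale. AT4G22513 differed from most falls in that noncolonized replicate 2 was its highest library (51.9 FPKM against 22.1 and 14.8). Leaving out SA187-colonized replicates 1, 2 and 3 gave 6, 5 and 1 lower genes, and leaving out noncolonized replicates 1, 2 and 3 gave 3, 11 and 6.

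Genes of cell wall remodelling went both ways. Among 38 tested genes of xyloglucan endotransglucosylases (XTH, enzymes that cut and rejoin wall xyloglucan) and expansins 4 fell and 1 rose (median -0.35). XTR6 (AT4G25810) fell from 126, 44.9 and 137 to 23.8, 20.6 and 21.2 FPKM (log2 -2.03, SE 0.46, adjusted p = 0.0296), and XTH19 fell from 13.5, 7.21 and 16.7 to 4.08, 3.08 and 3.35 FPKM. XTH25 (AT5G57550) rose from 1.91, 3.02 and 2.02 to 7.86, 6.10 and 15.7 FPKM (log2 1.63, SE 0.31, adjusted p = 0.0199). Without SA187-colonized replicates 1, 2 and 3 the list had 3, 1 and 0 lower genes and without noncolonized replicates 1, 2 and 3 it had 1, 7 and 2; XTH25 passed in 4 of those 6 fits. Of 30 cellulose synthesis genes 1 rose, CSI1 (AT2G22125), which links cellulose synthase to microtubules, from 7.18, 14.3 and 5.6 to 15.1, 19.0 and 23.7 FPKM, and it did not pass with the length and GC trend removed. Other wall and surface protein genes, chosen after their values were seen, fell: ATPMEPCRB, a pectin methylesterase gene (114, 73.3 and 80.1 against 33.6, 32.9 and 22.3 FPKM), and the arabinogalactan protein genes AGP1 (251, 226 and 255 against 110.1, 120.1 and 80.0 FPKM) and AGP2 (-2.17).

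Auxin-responsive SAUR genes, whose small proteins promote cell expansion, also split. Of 53 tested 5 fell and 1 rose, 38 were negative and the median was -0.46. AT2G35290 (SAUR79 among its synonyms in the reference) fell from 96.2, 53.9 and 129 to 23.5, 21.8 and 15.0 FPKM (log2 -2.09, SE 0.31, adjusted p = 0.0101), and SAUR63, AT1G29430, SAUR29 and AT2G46690 fell by 1.42, 1.26, 1.08 and 1.12 on the log2 scale; the last was chosen after its value was seen. AT1G56150 (SAUR71 among its synonyms) rose from 2.06, 1.8 and 4.80 to 6.89, 10.9 and 8.21 FPKM (log2 1.37, SE 0.26, adjusted p = 0.0206). SAUR transcripts are short. With the length and GC trend removed the median was -0.10 and 1 gene was lower. Lower SAUR genes numbered 6, 1 and 0 without SA187-colonized replicates 1, 2 and 3 and 2, 11 and 1 without noncolonized replicates 1, 2 and 3, and higher ones 1, 0 and 0 and then 0, 3 and 2.

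Among 36 glutathione transferases, which attach glutathione to reactive compounds, 4 fell and 0 rose (27 negative, median -0.40). GSTF6 (AT1G02930) was at 167, 60.5 and 303 FPKM in noncolonized against 40.3, 32.3 and 24.0 FPKM in SA187-colonized libraries (log2 -2.17, SE 0.44, adjusted p = 0.0238), and GSTF12, which takes part in anthocyanin transport, at 71.7, 32.1 and 78.0 against 18.1, 22.1 and 7.61 FPKM. GSTU7 fell by 1.15 on the log2 scale, and GSTU1 fell too. In the list of UDP-glycosyltransferases, which was chosen after values were seen, 7 of 85 fell and 0 rose (50 negative, median -0.05), among them UGT73B2 (26.5, 12.6 and 27.6 against 7.42, 6.05 and 5.20 FPKM) and its neighbour UGT73B3 (-1.17). Lower glutathione transferases numbered 3, 0 and 0 without SA187-colonized replicates 1, 2 and 3 and 0, 8 and 1 without noncolonized replicates 1, 2 and 3; for UDP-glycosyltransferases the numbers were 4, 3 and 0 and then 3, 11 and 4. UGT73B2 passed in 5 of the 6 fits.

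In the nitrate list 3 of 19 genes fell and 0 rose (10 negative, median -0.18), and 1 of the 3, NRT1.8, passed with the length and GC trend removed. NRT1.8 (AT4G21680), a transporter that takes nitrate out of the xylem, was at 12, 5.40 and 14.1 against 3.16, 3.18 and 3.07 FPKM (log2 -1.38, SE 0.32, adjusted p = 0.0296). LBD39, a repressor of nitrate-responsive genes, was at 96.4, 53.5 and 102 against 51.2, 34.3 and 34.8 FPKM, and WR3, a partner of high-affinity nitrate transporters, at 7.77, 4.85 and 11.3 against 3.16, 3.46 and 2.49 FPKM. Without SA187-colonized replicates 1, 2 and 3 the list had 1, 0 and 0 lower genes and without noncolonized replicates 1, 2 and 3 it had 0, 3 and 0. SPX1 (AT5G20150), a phosphate sensor gene induced by phosphate starvation, fell from 10.8, 6.88 and 17.4 to 3.15, 3.13 and 3.61 FPKM, 1 of 13 in its list. Lists of growth regulators had few calls, all lower. They were 2 of 19 brassinosteroid and gibberellin genes (11 positive, median 0.09), 1 of 40 histone and cell division genes (33 negative, median -0.26) and 1 of 24 cytokinin genes (17 negative, median -0.16). Among these were GA3OX1, the last enzyme of gibberellin synthesis (5.50, 3.30 and 4.31 against 1.76, 1.18 and 0.936 FPKM), the cyclin gene CYCD3;3 (10.2, 7.01 and 16.6 against 4.91, 4.48 and 4.66 FPKM) and the cytokinin response factor gene CRF3 (2.91, 1.85 and 4.21 against 0.615, 0.686 and 0.870 FPKM). GA3OX1 and SPX1 passed in 5 and 4 of the 6 fits that left out a library, CYCD3;3 and CRF3 in 2 each, and the latter pair did not pass with the length and GC trend removed.

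In the list of jasmonate synthesis 3 of 13 tested genes rose, 1 fell, 11 were positive and the median was 0.66. Of the lists counted here it held the most genes that rose, and most of the 37 were in no list. Jasmonate is made from linolenic acid by lipoxygenases, allene oxide enzymes and the reductase OPR3, and JAR1 joins it to isoleucine to give the active hormone. LOX3 (AT1G17420) was at 13.5, 30.0 and 5.50 FPKM in noncolonized and 47.0, 46.3 and 57.3 FPKM in SA187-colonized replicates 1, 2 and 3 (log2 1.83, SE 0.43, adjusted p = 0.0332), and OPR3 (AT2G06050) was at 49.4, 73.8 and 33.4 against 117, 103 and 128 FPKM (adjusted p = 0.0281). JAR1 was at 15.3, 24.7 and 11.4 against 36.3, 33.1 and 41.3 FPKM. The colonized libraries were within a narrow band in each case, and noncolonized replicate 3 was the lowest. IAR3 (AT1G51760), a hydrolase that cleaves amino acid conjugates of auxin and jasmonate, rose from 6.84, 18.3 and 6.01 to 25.7, 20 and 31.8 FPKM. It belongs to a list of jasmonate turnover and response, where 1 of 14 tested genes rose and 1 fell (8 positive, median 0.11). The gene that fell, CYP94C1 (AT2G27690), was at 31.75, 24.84 and 17.9 against 12.95, 9.40 and 8.79 FPKM (adjusted p = 0.0267). Among 9 tested JAZ repressor genes 0 were called and 5 were positive. Under 2-fold, 1 JAZ gene passed the adjusted p as higher and 2 as lower, JAZ1 (-0.925) and JAZ5 (-0.762). In the synthesis list AOC3, an allene oxide cyclase gene, fell from 13.7, 7.60 and 15.5 to 5.07, 5.14 and 4.71 FPKM, opposite to the other members that passed. AOC3, LOX3, OPR3, JAR1 and IAR3 each passed in 1 of the 6 fits that left out a library. With the length and GC trend removed AOC3 did not pass, and LOX3, OPR3, JAR1 and IAR3 did. Higher jasmonate synthesis genes numbered 0, 0 and 0 without SA187-colonized replicates 1, 2 and 3 and 0, 6 and 0 without noncolonized replicates 1, 2 and 3.

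Genes of the vacuole and of the chloroplast rose as single members of their families. GAMMA-TIP (AT2G36830), a water channel of the vacuolar membrane, was at 119, 214 and 83.2 FPKM in noncolonized and 311, 302 and 339 FPKM in SA187-colonized libraries (adjusted p = 0.0258). It was the one aquaporin of 20 tested that passed, while 5 more passed the adjusted p under 2-fold and 16 were positive (median 0.32). ATBETAFRUCT4, a vacuolar invertase gene (34.1, 52.5 and 26.8 against 79.8, 70.7 and 87.7 FPKM), and CAX7, a calcium exchanger gene (1.35, 1.42 and 0.414 against 2.87, 4.00 and 6.29 FPKM), rose too and were chosen after their values were seen. RBCS1B (AT5G38430), 1 of the genes of the small subunit of Rubisco, rose from 1125, 1605 and 784 to 2386, 3371 and 2039 FPKM (log2 1.18, SE 0.26, adjusted p = 0.0266), and 15 of 17 Rubisco and Calvin cycle genes were positive (median 0.34). The small subunit genes are near copies that can share reads, so the value of this single copy is uncertain. The peroxiredoxin gene 2-Cys Prx B, whose product removes peroxides in chloroplasts, rose from 21.6, 23.5 and 11.5 to 31.3, 46.3 and 50.6 FPKM. Without SA187-colonized replicate 2 or 3 or noncolonized replicate 1, 0 genes of the aquaporin and Calvin cycle lists passed.

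**Figure D4:**
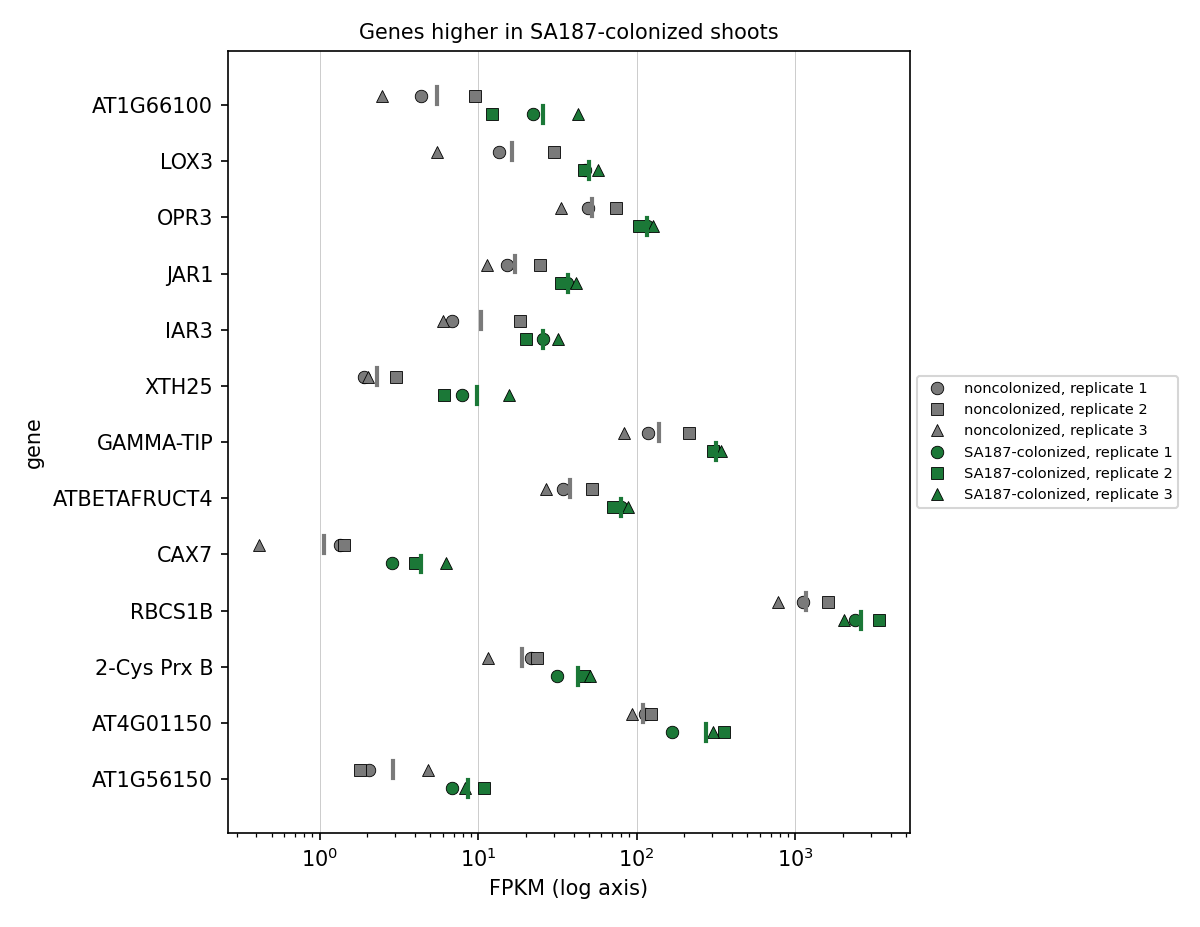
FPKM (log axis) of 13 genes called higher in SA187-colonized shoots, in each library; grey symbols are noncolonized and green symbols SA187-colonized shoots, symbol shape gives the replicate and the short bar the group mean. The groups do not overlap for any of the 13 genes; the gap is narrow for IAR3, with 18.3 FPKM in the highest noncolonized and 20 FPKM in the lowest SA187-colonized library.

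By the naming rule the largest rises also held AT5G04790, AT5G65609, AT1G66100, AT5G40450, AT3G23450, AT3G15780, AT3G51450 and NHL1. AT5G04790 was listed at 0 in all noncolonized libraries and at 27.9, 12.6 and 3.20 FPKM in the SA187-colonized ones, and AT5G65609 at 0, 0 and 11 against 14.5, 14.9 and 14.3 FPKM. AT1G66100, a thionin (a small antimicrobial protein of plants), was at 4.35, 9.58 and 2.49 against 22.2, 12.3 and 42.4 FPKM (log2 2.03, SE 0.47, adjusted p = 0.0305), and AT3G23450 at 16.6, 16.1 and 7.36 against 30.9, 36.6 and 54.9 FPKM. The long transcripts AT5G40450 and AT2G32240, of which the second was chosen after its values were seen, rose from 7.40, 16.9 and 6.99 to 21.2, 31.4 and 47.5 FPKM and from 9.01, 15.2 and 6.63 to 21.4, 22.5 and 33.6 FPKM. AT2G40205, annotated as a ribosomal protein L41 and with a transcript of 349 bases, was listed at 0 in the noncolonized and at 3.07, 2.56 and 1.46 FPKM in the colonized libraries, and it was the one gene of the 37 that passed in all 6 fits that left out a library. ATP-PRT1 and ATP-PRT2, both copies of the first enzyme of histidine synthesis, were chosen after their values were seen and rose from 4.64, 5.77 and 3.15 to 7.02, 11 and 12.6 FPKM and from 10.4, 8.34 and 5.93 to 11.4, 20.9 and 23.2 FPKM.

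Several lists had few or 0 calls. Over all 15724 tested genes 4125 had an unadjusted p under 0.05 by limma. Fold changes were positive for 7344 and negative for 8380 of all tested genes. Of 21 tubulin and actin genes 19 were positive (median 0.14), 6 had an unadjusted p under 0.05 and 0 passed limma's adjusted test with the fold; ACT2 was at 157, 196 and 158 against 226, 238 and 238 FPKM. Of 18 aliphatic glucosinolate genes 17 were negative (median -0.30), 9 had an unadjusted p under 0.05, 4 passed limma's adjusted p under 2-fold and 0 passed both, with the regulator MYB29 at 6.44, 6.99 and 8.00 against 4.70, 3.69 and 3.73 FPKM. Of 115 tested cytosolic ribosomal protein genes 90 were negative (median -0.29), 2 fell and 1 rose. With the length and GC trend removed their median was -0.13 and 1 was lower. The gene of this list that rose was AT1G53560, annotated as ribosomal protein L18ae family, from 4.71, 3.63 and 3.91 to 6.54, 12.05 and 15.0 FPKM. AT2G40205, annotated as a ribosomal protein L41, was not in the list and is not in these counts. Ethylene synthesis and signaling genes (25 tested) had 0 calls by limma, also by the adjusted p alone, with 15 positive, 10 negative and a median of 0.07; at an unadjusted p under 0.05, 2 were positive and 6 negative. Among them ACS6, of ethylene synthesis, was at 15.2, 7.48 and 18.0 against 8.16, 5.80 and 4.61 FPKM. These 4 lists kept 0 to 4 genes called in each direction with any library left out.

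**Figure D5:**
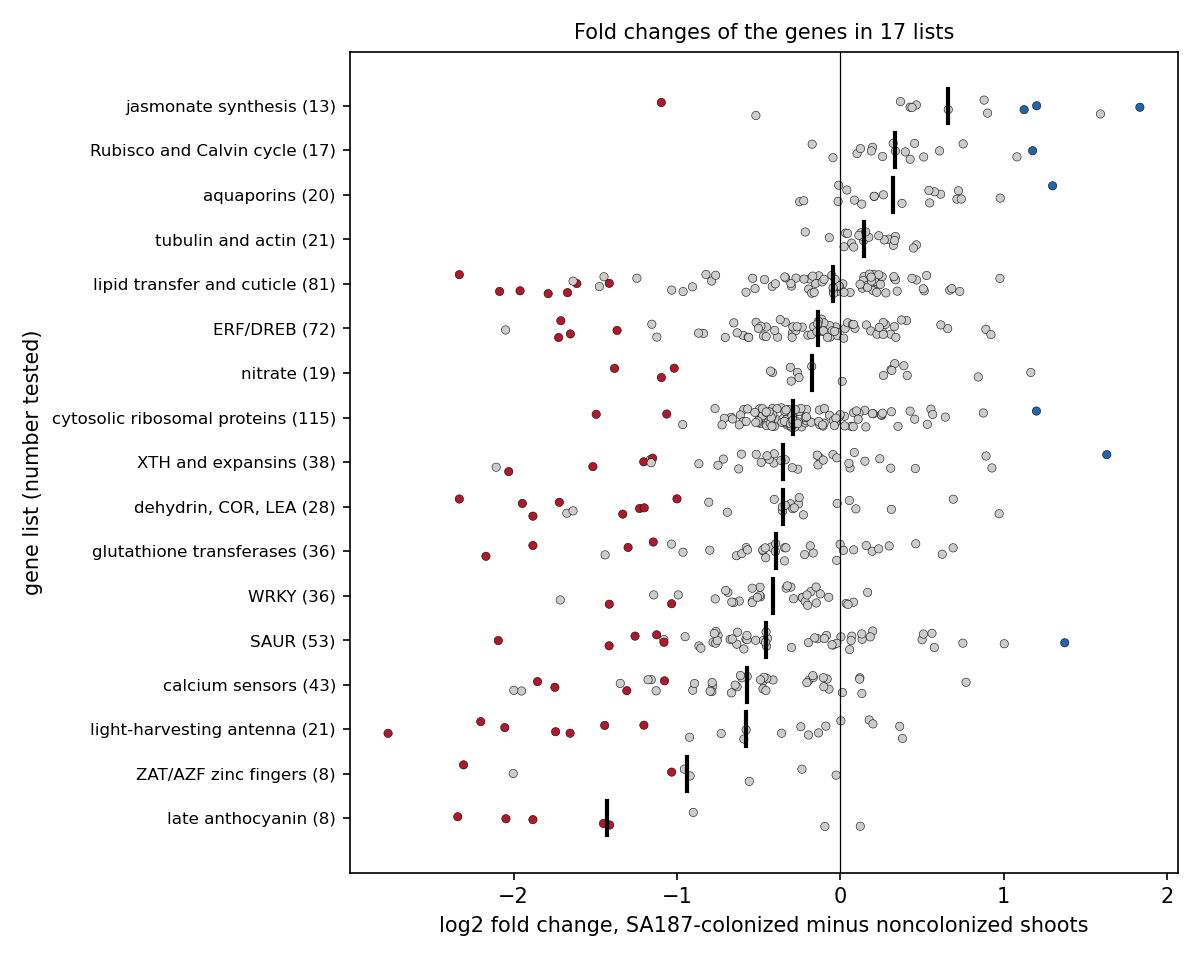
Log2 fold change, SA187-colonized minus noncolonized shoots (x axis), of every tested gene in 17 lists (y axis, number tested in parentheses); red points were called lower, blue points higher and grey points not called, and the black bar is the list median. Medians run from -1.43 for late anthocyanin genes to 0.66 for jasmonate synthesis, against -0.02 over all tested genes. Of 8 tested late anthocyanin genes 5 fell, and this list was completed after the files were read. Its lower genes numbered 4, 2 and 0 without SA187-colonized replicates 1, 2 and 3. Without noncolonized replicates 1, 2 and 3 they numbered 1, 6 and 3.

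Fold changes went with transcript length. The median was -0.25 for 538 transcripts under 700 bases, of which 31 fell (5.76%) and 6 rose (1.12%). It was -0.04 for 3874 transcripts of 1500 to 2000 bases, of which 45 fell (1.16%), and 0.24 for 631 of at least 4000 bases, of which 0 fell and 3 rose (0.475%). For each library, a gene's deviation from its mean log2 value over all shoot libraries, compound-treated ones included, was regressed on log2 transcript length. The slopes were -0.12, 0.02 and -0.37 in noncolonized and -0.04, -0.02 and 0.05 in SA187-colonized replicates 1, 2 and 3. They are relative to that mean, so a flat slope does not show that expression was independent of length. The noncolonized libraries with the steepest slopes, 3 and 1, were also the highest of all 6 for 160 and 52 of the genes that fell. With the trend on length and GC content removed, 132 of the 217 genes that fell and 35 of the 37 that rose passed, among them TCH2, CML23, ESE3, ZF1, the 7 antenna genes, LTP2, UGT73B2, LOX3, RBCS1B and XTH25, whereas CSI1, ATBETAFRUCT4, COR15A, COR15B, MSS3, AT3G25600, ZF3, WRKY40, LBD39, WR3, AOC3, GSTU7, CYCD3;3, CRF3, CYP707A3, AT4G22513, AT5G40460, SAUR29, SAUR63, AT1G29430 and AT2G46690 did not.

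The noncolonized libraries were also the control of the compound-treated shoots of the study, so those shoots are no independent comparison, and their values are set beside the genes above with no test. The compounds were ACC, the precursor of ethylene, and KMBA, a keto acid that SA187 releases. TCH2 was at 499 ± 204 FPKM in noncolonized, 140 ± 22.6 in SA187-colonized, 78.5 ± 18.5 in ACC and 93.3 ± 13.0 in KMBA shoots (mean ± SD, n = 3 each). LHCB2.1 was at 160.1 ± 59.6, 36.1 ± 6.31, 74.3 ± 2.23 and 58.5 ± 9.66 FPKM in the same order. LOX3 was at 16.4 ± 12.5, 50.2 ± 6.16, 9.93 ± 3.04 and 46.7 ± 12 FPKM, and thus near the noncolonized level with ACC and near the SA187 level with KMBA. NRT1.8 was at 10.5 ± 4.55, 3.14 ± 0.0579, 11.8 ± 3.39 and 9.52 ± 3.09 FPKM, with SA187 the lowest of the 4 groups.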

How the data were processed

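PolyA RNA of 21-day-old Arabidopsis shoots was sequenced by the authors, and 3 noncolonized and 3 SA187-colonized libraries were compared. Per the labels, reads were checked with FastQC 0.11.5, trimmed with Trimmomatic 0.36 and aligned with TopHat to TAIR10. The authors used Cufflinks 2.2.1 for the deposited FPKM values and state no scaling between libraries. The labels also name Cuffdiff and featureCounts 1.5.1. Depth cannot be recovered from FPKM, and the sources used here do not say whether counting used strand. The study names its replicates as biological, and p-values measure the spread between these samples.

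Of 27371 genes 26703 matched RefSeq TAIR10.1 by locus ID, which gave names, lengths, GC content and sequences. A gene entered the test if 3 or more of the 12 shoot libraries had 1 FPKM or more. Values were taken as log2(FPKM + 1), and limma 3.58.1, run under R 4.3.3, gave 2-sided p-values by lmFit and by eBayes with a mean-variance trend. SA187-colonized, noncolonized, ACC and KMBA shoots shared 1 fit and its estimate of spread. Calls needed an adjusted p (Benjamini-Hochberg) under 0.05 together with a change above 2-fold. A pseudocount of 1 understates the change of low genes.

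Named were the 12 largest rises and 12 largest falls without overlap whose higher group averaged 5 FPKM or more, and up to 5 called members with the lowest p per list, or the 2 lowest where 0 were called. Genes named as exceptions, as neighbours, for passing in every fit that left out a library or for the motif fell outside this rule and were chosen after their values were seen. The comparison and lists were chosen with earlier results of these data known, and several lists were completed from the reference annotation after the files were read. Alternatives were a pseudocount of 0.1, no filter, a filter of 5 FPKM, median-ratio scaling, eBayes without trend, only the 6 libraries, library weights, the sequencing pool as covariate, the replicate number as block, subtraction of each library's lowess trend (span 0.3) on length and GC content, and leaving out each library. On simulated data, the fit recovered 98.5% of genes given a log2 change of 1.5 and 100.0% of those given 2 or 3, with 6 false calls among 15724 genes. That noise was independent and equal in all groups, unlike the wider spread of the noncolonized libraries. The changed genes were drawn only from those with a mean log2(FPKM + 1) above 2, so recovery of lower genes was not tested. Figures were drawn with matplotlib.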

Additional observations from a re-analysis of the deposited data

How the results depend on the processing

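With all libraries, 37 genes were higher and 217 lower in SA187-colonized shoots. A pseudocount of 0.1 gave 62 higher, no filter on low values gave 19 higher and 121 lower among 23814 genes, and removal of each library's length and GC trend left 60 higher and 143 lower. A fit of the 6 libraries alone gave 1 higher and 9 lower, all of them among the 254. With library weights limma called 0 genes higher and 1 lower, LHCB2.2, while 36 and 278 genes had a fold over 2 at an unadjusted p under 0.05. Leaving out 1 library gave 1 to 110 higher and 11 to 615 lower genes. A filter of 5 FPKM, median-ratio scaling, eBayes without a trend and the pool covariate left both counts within 1.5 times. All 6 compared libraries were of the same pool, so the pool covariate could change the estimate of spread but not the fold changes. The replicate number as a block gave 38 higher and 241 lower; the correlations of same-numbered libraries were -0.122, 0.0186 and -0.101, so the numbers did not pair the samples. Among the named genes that passed, 0 fold changes changed sign under these alternatives. Read depth is unknown. The 5th percentile of values above 0, over transcripts within a fixed range of length, was higher in the noncolonized libraries. It was 0.115 to 0.136 against 0.0362 to 0.0581 FPKM times kb. A lower depth of the noncolonized libraries cannot be told apart from the groups.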
